A study of Glycine max with 4 samples.

Results

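The genes described here were detected in a single one of 4 soybean root libraries, replicate 1 of the transgenic group. They were selected on their expected counts: the table of Ri replicate 1 lists them, the other 3 tables do not, and their level in Ri replicate 1 is at least 1 CPM (the expected count divided by the library's total, in the usual depth-scaled unit). There were 164 such genes among the 47973 listed in at least 1 library. The values that chose them are the measured levels themselves, so their presence in Ri replicate 1 and their absence elsewhere is a description and not a test.

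The study sequenced mRNA from roots of soybean (Glycine max). Wild-type plants (WT) gave 2 libraries, and plants transgenic for suppression of GmHAD1-2 (labelled Ri) gave the other 2. Both groups were supplied with phosphate for 12 days before harvest, in a solution whose KH2PO4 content the design text states as 250 mM. Replicates are described there as biological, while the sources used here do not give the number of plants in a library, the number of transgenic lines or the promoter of the transgene.

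The HAD in the name of the suppressed gene stands for haloacid dehalogenase, a large enzyme superfamily with many phosphatases. Soybean descends from ancient whole-genome duplications, and many of its genes have close copies on other chromosomes. A sequenced fragment that matches several copies can be divided among them by the counting program, and the expected count of such a gene need not be a whole number. A gene that is silent in a tissue can also appear in a single library through a few fragments. A minimum level of the kind used here sets the lowest of such traces aside, but it cannot separate all of them from expression.

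None of the 164 genes could be given a name or a function. The identifiers belong to the second assembly of the cultivar Williams 82 (Wm82.a2.v1), and 0 of them matched an entry of the reference gene table, which covers another assembly. Lists of root, nodule, leaf, seed, flower or stress genes were therefore not applied. The identity of the tissue and the suppression of GmHAD1-2 rest on the labels, and a part of other cell types or tissue in the result was not tested. The genes are described by level, length, counting, chromosome and neighbours.

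Total expected counts ran from 10077854 to 11070260 per library. Ri replicate 1 had the lowest total and listed the most genes, 44830, where the other libraries listed 41921 to 42618. At these depths 3 counts, taken as the floor of a library, correspond to 0.271 to 0.298 CPM. Floors and intervals cover counting error only.

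The single-library genes of Ri replicate 1 were mostly of low level. Their expected counts in Ri replicate 1 had a median of 17.0, with quartiles of 13 and 24. In CPM the lowest was 1.02, the median 1.68 and the highest 57.2. By level, 106 of the 164 lay between 1 and 2 CPM, 40 between 2 and 4 CPM and 12 between 4 and 8 CPM. A further 4 lay between 8 and 16 CPM, and 2 lay above 16 CPM. The level thus fell off steeply after the first few genes, as the ranked plot of levels shows.

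**Figure D1:**
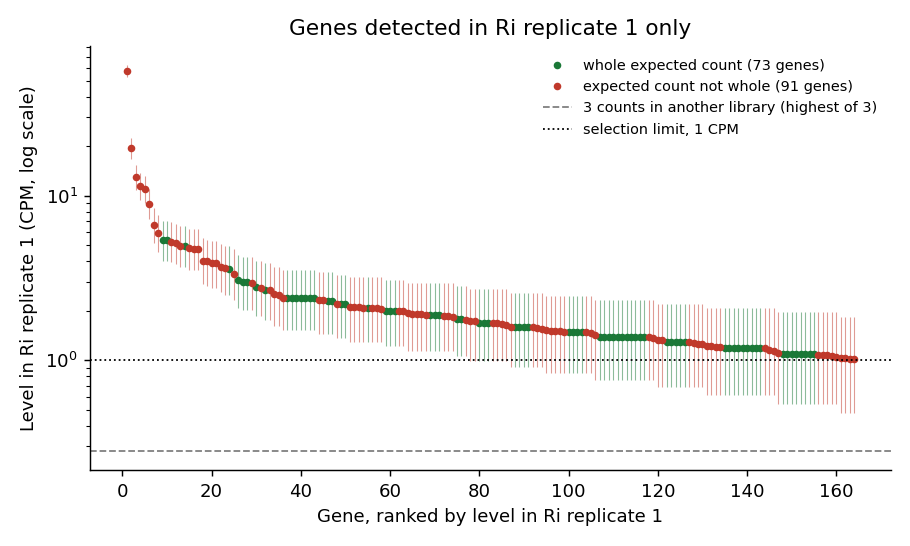
Level in Ri replicate 1 (CPM, log scale) of the 164 genes detected there only, ranked from high to low. Points are single genes, green where the expected count was whole and red where it was not, vertical lines are exact 95% Poisson intervals (counting error only), and the dashed line is the highest floor of 3 counts among the other libraries, 0.281 CPM. The first gene stands at 57.2 CPM, and 106 genes lie below 2 CPM.

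Summed over the 164 genes, expression in Ri replicate 1 was 4439 expected counts, or 440.5 CPM, which is 0.0440% of that library. In the other libraries the sum was 0, as the selection requires. The first gene held 13.0% of the summed counts, and the first 10 genes held 32.8%. Set against the highest floor among the other libraries, the lowest gene was at least 3.63-fold higher in Ri replicate 1 and the highest at least 204-fold. The median of these bounds was 6.0-fold, and 29 genes were at least 10-fold above the floor. The level limit of the selection sets the lower end of these bounds, and they take no account of the counting error of the gene's own level in Ri replicate 1. Nor do they take account of fragments that the counting program may have assigned to similar genes in another library.

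The highest level was that of Glyma.09G078000.Wm82.a2.v1, a short gene of chromosome 9 with a transcript of 306 bases. It had 577 expected counts in Ri replicate 1, 0 in both WT libraries and 0 in Ri replicate 2. In Ri replicate 1 this was 57.2 CPM, with an exact 95% Poisson interval of 52.7 to 62.1 CPM. The gene was at least 204-fold higher there than the floor of either WT library and at least 211-fold higher than the floor of Ri replicate 2. On the deposited FPKM scale, which corrects for length, it stood at 207.5 and ranked 319th among the 44830 genes of that library, against 3670th by CPM. Its expected count was not whole, so some fragments may have been divided with similar genes. The fold bounds assume that no fragments of this gene were assigned to similar genes in the other libraries, which was not tested.

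The next gene was Glyma.18G101200.Wm82.a2.v1 on chromosome 18, with a transcript of 1878 bases. It had 196 expected counts in Ri replicate 1, 0 in both WT libraries and 0 in Ri replicate 2. Its level was 19.4 CPM (exact 95% Poisson interval 16.8 to 22.4 CPM) and 10.3 FPKM. Each other library's floor was exceeded at least 69.1-fold. This expected count was not whole either.

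At the limit of the selection the levels were continuous. The 3 genes just inside it had 1.02, 1.02 and 1.03 CPM in Ri replicate 1, from 10.26, 10.29 and 10.43 expected counts. The 3 genes just outside it had 0.998, 0.993 and 0.992 CPM, from 10.06, 10.01 and 10 expected counts. A further 2583 genes were listed in Ri replicate 1 only and lay below 1 CPM, with a median of 1.78 expected counts.

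The same rule applied to the other libraries gave few genes. At 1 CPM it gave 4 in WT replicate 1, 2 in WT replicate 2 and 9 in Ri replicate 2, against the 164 of Ri replicate 1. At 5 CPM it gave 1, 0 and 0 in the same order, against 12. The highest level of a single-library gene was 7.44 CPM in WT replicate 1, 2.15 CPM in WT replicate 2 and 3.61 CPM in Ri replicate 2. Ri replicate 1 thus had the most such genes at each level required. With 1 library on one side this contrast has no replicate and was not tested.

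**Figure D2:**
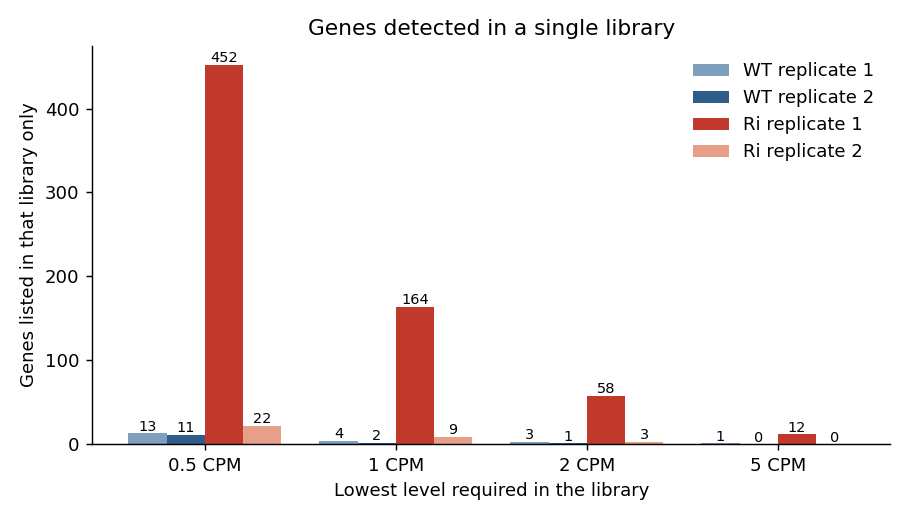
Number of genes listed in 1 library only (vertical axis), by the lowest level required in that library (horizontal axis, CPM) and by library (bar colour), with the number above each bar. Ri replicate 1 gives 452, 164, 58 and 12 genes at 0.5, 1, 2 and 5 CPM, and none of the other libraries gives more than 22 at any of these levels.

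Ri replicate 2 carries the same label, and 0 of its counts fell on these genes by the rule. Whether both Ri libraries come from the same transgenic line is not given in the sources used here. Of 229 genes at 1 CPM or more in Ri replicate 1 and unlisted in both WT libraries, 164 (71.6%) were also unlisted in Ri replicate 2. The other 65 were listed in Ri replicate 2 with a median of 0.121 CPM, below the floor, and 11 of them reached 1 CPM there. In the reverse direction, 31 genes stood at 1 CPM or more in Ri replicate 2 and were unlisted in both WT libraries, and 9 of these (29.0%) were unlisted in Ri replicate 1. In WT the shares unlisted in the other replicate were 21.1% of 19 genes for WT replicate 1 and 14.3% of 14 genes for WT replicate 2. The selection itself fixes the number for Ri replicate 1, so these shares are set side by side as a description. A difference between the plants of Ri replicate 1 and one of its library cannot be told apart. In bulk samples, more cells of a type and more RNA per cell cannot be told apart either.

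Genes absent from a single library were fewer than genes present in it alone for both Ri libraries, and more for both WT libraries. Ri replicate 1 lacked 14 genes that reached 1 CPM in each of the other 3 libraries, with a highest mean of 29.3 CPM there. The corresponding numbers were 7 for WT replicate 1, 3 for WT replicate 2 and 4 for Ri replicate 2. In Ri replicate 1 the 164 genes present in it alone thus stood against 14 absent from it alone, under rules whose level requirements differ.

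The 164 genes belong to a wider group that was high in Ri replicate 1 but not always at 0 elsewhere. At 1 CPM or more and at least 4-fold above each other library, there were 457 genes in Ri replicate 1, made up of the 164 and of 293 genes listed elsewhere. The 293 had a median of 2.18 CPM in Ri replicate 1, and the highest of their other libraries had a median of 0.271 CPM. The same rule gave 18 genes in WT replicate 1, 17 in WT replicate 2 and 225 in Ri replicate 2. The order of the Ri libraries turned with level. Between 1 and 2 CPM there were 245 such genes in Ri replicate 1 and 45 in Ri replicate 2, which is 6.40% and 1.38% of the genes at that level. At 16 CPM or more there were 31 in Ri replicate 1 and 51 in Ri replicate 2, or 0.237% and 0.366%. At that level WT replicate 1 had 2 such genes and WT replicate 2 had 4, or 0.0145% and 0.0301%. Ri replicate 1 thus stood above Ri replicate 2 at low level and below it at high level, and above both WT libraries in each range of level. The 164 genes pass this rule by their selection, so their part in these numbers is no separate result. They made up 106 of the 245 between 1 and 2 CPM, and 2 of the 31 at 16 CPM or more.

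**Figure D3:**
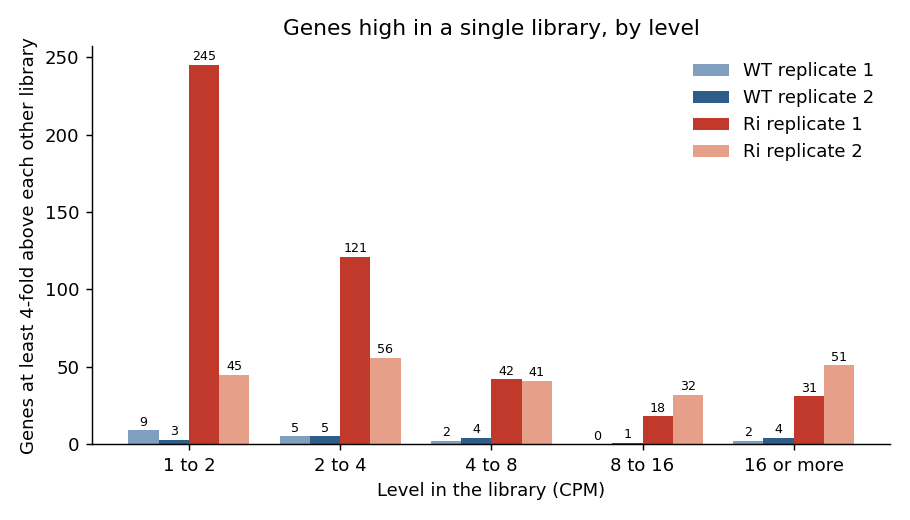
Number of genes at least 4-fold above each of the other 3 libraries (vertical axis), by level in the library itself (horizontal axis, CPM) and by library (bar colour), with the number above each bar. Ri replicate 1 leads between 1 and 4 CPM (245 and 121 genes), and Ri replicate 2 leads from 8 CPM upward (32 and 51 genes). Of the 245 and 121 genes, 106 and 40 were detected in Ri replicate 1 only and pass this rule by their selection.

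By median the genes were shorter than other genes of like level. The values of length, counting and position are descriptions, since genes of 1 library are not replicates and no test was made over them. Their transcript length had a median of 1208 bases and ran from 135 to 4092 bases, with quartiles of 727 and 1858 bases. For 8811 genes listed in all 4 libraries, within the range of 1.02 to 4.53 CPM that holds the lower 9 in 10 of the single-library genes, the median was 1521 bases. Over all 44830 genes of Ri replicate 1 it was 1608 bases, and over the 2583 single-library genes below 1 CPM it was 982 bases. Transcripts under 1000 bases made up 38.4% of the 164 (63 genes) and 23.2% of the genes of like level. Transcripts over 3000 bases made up similar shares, 7.93% (13 genes) and 7.37%. A single transcript was listed for 133 of the 164 genes (81.1%), for 70.2% of the genes of like level and for 67.4% of all genes of the library.

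On the length-corrected scale the single-library genes stood at a median of 1.61 FPKM in Ri replicate 1, and the genes of like level at 1.58 FPKM. At least 1 FPKM was reached by 117 of the 164 (71.3%) and by 75.3% of the genes of like level. Across the 164 genes, length and CPM were all but unrelated (Spearman's rho -0.017, a description over genes that share 1 library). The 2 sets thus had close median FPKM, although the median CPM of the genes of like level was 2.35 and that of the single-library genes 1.68.

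Expected counts were more often whole among these genes than among genes of like level. A whole count, within 0.005, was found for 73 of the 164 (44.5%), for 31.9% of the genes of like level and for 71.1% of the single-library genes below 1 CPM. Whole counts were thus more frequent in the sets of lower median level, and the part of level in the difference was not tested. The other 91 genes had counts that were not whole, and the level of each is uncertain to the extent that its fragments were divided among similar genes. The genes with counts that were not whole had a median of 1.86 CPM and a median length of 1125 bases, and those with whole counts 1.49 CPM and 1299 bases. Only 2 of the first 10 genes had whole counts, and the highest level with a whole count was 5.36 CPM, from 54.0 counts. Each of the genes above 5.36 CPM therefore had a count that was not whole, and how much of any count was divided is not measured in these tables.

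**Figure D4:**
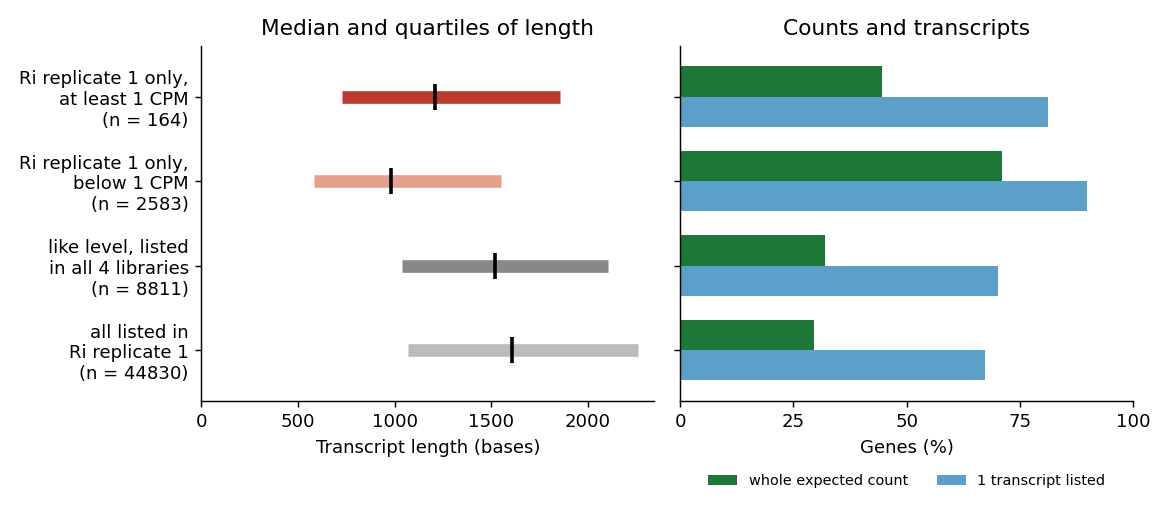
Left, transcript length in bases for 4 sets of genes, with the median (black mark) and the range between the quartiles (coloured bar). Right, the share of the same sets, in the same order from the top, with a whole expected count in Ri replicate 1 (green) and with 1 listed transcript (blue), in percent. The 164 genes have a median of 1208 bases, 44.5% whole counts and 81.1% with 1 transcript, each between the single-library genes below 1 CPM and the genes of like level.

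The genes were spread over all 20 chromosomes, with the most on chromosomes 16 and 18. Chromosome 18 carried 20 of them and chromosome 16 carried 18, and 3 more lay on sequence not placed on a chromosome. As a share of the genes listed on the chromosome these were 0.965% on chromosome 16 and 0.805% on chromosome 18, against 0.342% over all listed genes. On unplaced sequence the share was 0.929%, from 3 of 323 genes. The other 18 chromosomes ran from 0.136% on chromosome 4 to 0.531% on chromosome 3. Chromosomes 16 and 18 together held 23.2% of the 164 genes and 9.07% of all listed genes. They were singled out after these values were seen, and no test was made of the difference.

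Other sets of genes were placed beside this share. Chromosomes 16 and 18 held 10.3% of the single-library genes below 1 CPM and 9.41% of the genes of like level. They held 7.85% of the 293 genes that were at least 4-fold above each other library in Ri replicate 1 and listed elsewhere. Of the 216 genes chosen in that way in Ri replicate 2 they held 10.2%, and in WT replicates 1 and 2 they held 14.3% of 14 genes and 20% of 15 genes. The shares in the sets of Ri replicate 1 were thus lower than that of the 164 genes, and the WT sets hold few genes. With the level limit at 2 CPM, which keeps a part of the 164 genes, the share on these chromosomes was 27.6%. With 0.5 CPM it was 14.4%, and with up to 3 counts allowed in each other library it was 14.3%. The last 2 sets contain all 164 genes, so the genes that they add had shares below 14.4% and 14.3%. These shares are therefore not separate observations. The single-library genes of these 2 chromosomes had a median of 1.81 CPM and 42.1% whole counts, and those elsewhere had 1.68 CPM and 45.2%.

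**Figure D5:**
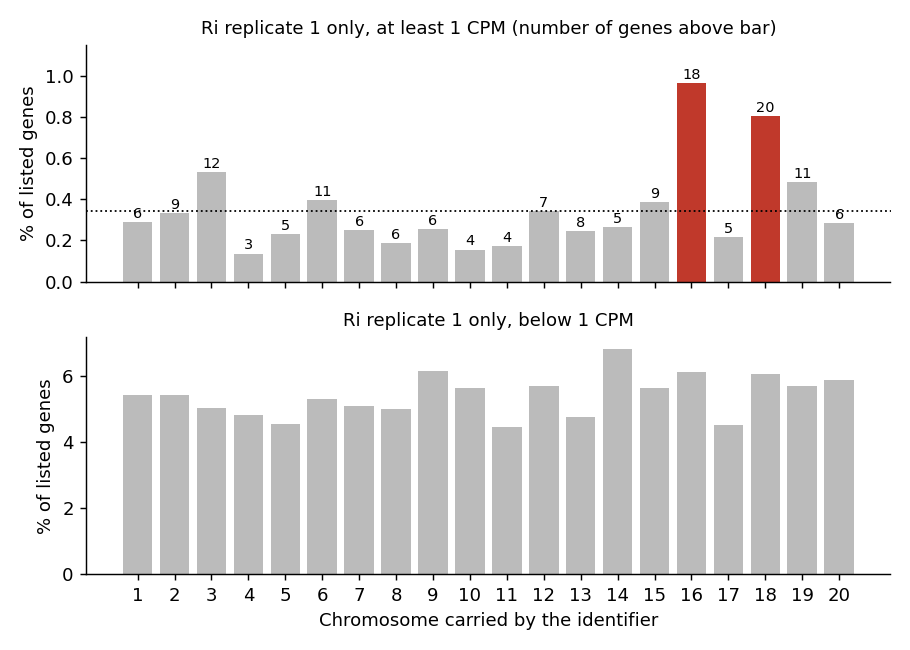
Share of the genes listed on each chromosome (vertical axis, percent) that were detected in Ri replicate 1 only, at 1 CPM or more (top, with the number of genes above each bar and the share over all listed genes, 0.342%, as a dotted line) and below 1 CPM (bottom). In the top panel chromosomes 16 and 18 (red) reach 0.965% and 0.805%, and in the bottom panel the 20 chromosomes run from 4.47% to 6.83%.

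Some of the genes lay close together. Positions were counted in identifier order among all listed genes of a chromosome, and 17 of the 164 genes (10.4%) had another of them within 5 positions. No share of another set of genes is set beside this, so whether it is high cannot be said. These made up 9 pairs on 6 chromosomes, of which 4 pairs were directly next to each other. Chromosome 18 held 6 of the 17 genes and chromosome 16 held 3. Neighbouring genes are often copies of each other in plants, and such pairs are not separate observations.

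The genes around them were more often below 1 CPM in the other libraries than the genes around those of like level. The 2 sets of neighbours were not formed alike, however. The 164 genes were left out of both sets, and genes of like level were left out of neither. Genes of like level are listed in all 4 libraries, and how far their presence moves the shares and medians below was not measured. Among 319 genes directly next to one of the 164 and not among them, 40.4% were below 1 CPM in each of the 3 libraries other than Ri replicate 1. For the genes next to those of like level the share was 25.9%. A further comparison concerned the neighbours in Ri replicate 1 itself. There 35 of the 319 (10.97%) were single-library genes below 1 CPM, against 4.86% beside the genes of like level. Such genes are by definition also below 1 CPM in the 3 other libraries, so this comparison overlaps the one before it. Of the 319, 7 (2.19%) stood at 1 CPM or more and over 2-fold above each other library, and 6 (1.88%) were over 2-fold below each. Beside the genes of like level these shares were 1.45% and 1.80%. The median level of the neighbours was 1.87 and 1.61 CPM in WT replicates 1 and 2, and 1.89 and 2.08 CPM in Ri replicates 1 and 2. The median for Ri replicate 1 thus lay within the range of the other libraries. Beside the genes of like level the medians were higher, from 4.69 to 5.50 CPM over the 4 libraries.

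The comparison of Ri with WT could not place these genes. Of the 164, 0 passed the filter on low counts in edgeR's quasi-likelihood test, which with 2 libraries per group requires a minimum count in at least 2 of them. Among the 34151 genes that passed, 40 (0.117%) were called after Benjamini-Hochberg adjustment (threshold 0.05), and 2135 had an unadjusted p under 0.05. All 40 were lower in Ri. Without the filter edgeR tested all 164 and called 0, where 0.342% of the 47973 genes were called. Of those calls 14 were higher and 150 lower in Ri, and the 164 genes could only be higher. Their unadjusted p ran from 0.0778 to 0.342, so that 0 were under 0.05, and the adjusted p was 0.897 for each. DESeq2 called 0.840% of its genes, 36 higher and 265 lower in Ri. It gave an adjusted p to 43 of the 164 and called 1 of them, Glyma.09G078000.Wm82.a2.v1 (adjusted p = 0.00025). That gene had 0 counts in Ri replicate 2 as in WT, so the call rests on 1 library and is no difference shared by the Ri libraries. The rule used these same values, and nothing is read from the counts.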

How the data were processed

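Every library has its own deposited table with columns for length, expected count and FPKM, per the file headers. The deposited expected counts are estimated fragments per gene, not normalized. The deposited FPKM values, made by the authors, are scaled by length and depth. The submitters' processing notes name RSEM, HISAT and Bowtie2; versions, roles and the use of strand are not given in the sources. The lowest listed FPKM was 0.01, and an unlisted gene was taken as 0.

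CPM was computed on unscaled totals of the deposited counts. The genotype test used edgeR 4.0.16 in R 4.3.3, with counts rounded, TMM scaling and the default filter. It was a robust quasi-likelihood F-test with Benjamini-Hochberg adjustment over all genes. It was tried on simulated data with large changes planted in well-counted genes only, so its behaviour at low counts was not tested. DESeq2 1.42.0 was an alternative. With 2 libraries per group, p-values set the difference between groups against the spread between these libraries, estimated in part across genes. The group and the comparisons were chosen with earlier results of these data known. With no gene names, the rule was to print the 2 genes of highest CPM. Identifier order stands in for position, and coordinates are not used here.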

Additional observations from a re-analysis of the deposited data

How the results depend on the processing

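The number of genes detected in Ri replicate 1 only depended on the limits. It was 452 at 0.5 CPM, 58 at 2 CPM, 12 at 5 CPM, 255 with at least 1 FPKM in place of CPM and 342 with up to 3 counts allowed in each other library. It stayed within 1.5 times of 164 with a TMM-scaled library size (193), with up to 1 count elsewhere (232), and, chosen after seeing the data, with rounded counts (163). Without one of the other libraries it was 182 to 229. The median length was 1227 and 1398 bases at 0.5 and 2 CPM, the share of whole counts 53.8% and 36.2%, and the genes with another within 5 positions 82 and 4. Directly adjacent genes numbered 8, and 24 had another within 10 positions. The genotype test called 40 genes, and 48 with DESeq2 size factors, 164 without a filter and 301 in DESeq2. Leaving out 1 library gave 0 to 1994 calls, with 0 without either WT library (unadjusted p under 0.05 for 795 and 991 genes). It was 1994 without Ri replicate 1, and 1623 when Ri replicate 2 was left out, the lone library being assumed to vary like the other group. The differences between replicates had a correlation of -0.21 between WT and Ri across genes. This value cannot show whether the libraries were prepared in pairs. With the replicate block edgeR called 107, and with a crossed replicate block, chosen after seeing that correlation, it called 68. For each move the cause was not tested. At this depth levels below about 0.3 CPM are within the floor of 3 counts.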
